A study of Mus musculus with 8 samples.

Results

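The genes described here are 10 members of the Notch pathway: the receptors Notch1, Notch2 and Notch3, the ligands Dll1, Dll3, Jag1 and Jag2, and the nuclear effectors Rbpj, Hes1 and Hes5. They were chosen by gene name. The arrays held 14 probes for them, out of 55681 probes and 36163 gene names. All 10 genes were well above background on all 8 arrays through at least 1 probe, and 13 of the 14 probes were so on every array.

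RNA was measured in mouse embryonic stem (ES) cells of the E14Tg2A line, which is derived from strain 129/Ola, and in cells obtained from them by neuralization in vitro. ES cells at 0 days in vitro (DIV) grew in serum with the cytokine LIF. The 3 later stages grew in a serum-free minimal medium with the supplements N2 and B27: floating epiblast-like aggregates (ELA) at 2 DIV, adherent neural progenitor cells (NPC) at 6 DIV, and neural precursors (NPC/Neu) at 10 DIV, for which B27 was omitted after 6 DIV. At each stage 1 array received total RNA and 1 array received Ago-RNA, the RNA recovered from cytosol with an antibody against all Argonaute proteins, the proteins of the RNA-induced silencing complex (RISC) that hold miRNAs. Each array held RNA pooled from 3 independent experiments of this 1 cell line, so no value has a replicate and no test between stages was possible.

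Notch receptors are membrane proteins that a Delta-like or Jagged ligand on a neighboring cell activates. Proteases then cut the receptor and free its intracellular domain, which enters the nucleus, joins the DNA-binding protein Rbpj and turns on target genes. Hes1 and Hes5 are such targets in the neural tube, where they repress proneural genes and so keep progenitors from becoming neurons. Dll1 is made by cells that are leaving the progenitor state. Dll3 differs from the other ligands in acting mainly within the cell that makes it. The mRNAs of several Notch genes are known targets of miRNAs, which guide RISC to the 3′ untranslated region (3′ UTR).

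The seeds (bases 2 to 8, in capitals) of miRNA families used by pluripotent or neural cells show which words can pair in the 3′ UTRs of these mRNAs. The mature sequences are those of RefSeq, and miRNA levels were not analysed here.
miR-291a-3p: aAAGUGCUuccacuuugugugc
miR-302b-3p: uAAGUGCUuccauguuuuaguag
let-7a-5p: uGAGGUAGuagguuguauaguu
miR-9-5p: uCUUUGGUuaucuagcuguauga
miR-34a-5p: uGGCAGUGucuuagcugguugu

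miR-291a-3p and miR-302b-3p share their seed, as do miR-294-3p, miR-295-3p and miR-302d-3p. The word AGCACTT, which pairs with it, was in the 3′ UTR of 0 of the 10 genes and in 11.8% of the 19915 genes with a 3′ UTR in the annotation. The let-7 word CTACCTC was in 2 (Dll3 and Rbpj, against 7.39% of all genes). The miR-9 word ACCAAAG was in 2 (Notch1 and Notch2, against 9.97%). The miR-34 word CACTGCC was in 5 (Notch1, Notch2, Dll1, Jag1 and Rbpj, against 12.1%). Notch3, Jag2, Hes1 and Hes5 held none of these 4 words. A match is a description of letters and not a shown site. A longer 3′ UTR has more places for a match, and the shares were not adjusted for length. The median 3′ UTR was 848 bases for the 10 genes and 710 for all genes. Of the genes with the miR-34 word, Notch1, Notch2, Jag1 and Rbpj had 1568 to 3825 bases and Dll1 had 676. The sites below, with the word in capitals, are those nearest the start of each 3′ UTR, counted from its first base.
Notch1, miR-9 word at base 84 of 1628: caggatgctggggcgACCAAAGgagcctt
Notch2, miR-9 word at base 2573 of 2923: cttgcatagaaatgaACCAAAGgtgttca
Notch1, the first of 3 miR-34 words, at base 187: tattttccacagaaaCACTGCCtttttat
Notch2, the first of 2 miR-34 words, at base 1973: ctaaagctctagtgcCACTGCCtgcgaac
Dll1, the first of 2 miR-34 words, at base 165 of 676: agcagaggcgcccgaCACTGCCagcctag
Jag1, miR-34 word at base 1347 of 1568: atttgccgtagagtaCACTGCCtgcctta
Rbpj, miR-34 word at base 857 of 3825: gttcatggcagtgagCACTGCCgttcgaa

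The other sequence set shown is the upstream region of Hes5, because Rbpj, itself a member, is known to bind the word GTGGGAA. This word or its reverse complement TTCCCAC was sought in windows from 250 bases before to 50 bases after the start of each gene. It was in 6.38% of all 32851 windows, and 0.256% held it at least 2 times. Of 11 windows for 9 of the 10 genes, 1 held it, that of Hes5, with TTCCCAC at position -226 and GTGGGAA at position -83 from the start. The 250 upstream bases lie at chr4:154960673-154960922 on the plus strand of GRCm38.p6 (RefSeq), with both words in capitals.
Hes5 upstream: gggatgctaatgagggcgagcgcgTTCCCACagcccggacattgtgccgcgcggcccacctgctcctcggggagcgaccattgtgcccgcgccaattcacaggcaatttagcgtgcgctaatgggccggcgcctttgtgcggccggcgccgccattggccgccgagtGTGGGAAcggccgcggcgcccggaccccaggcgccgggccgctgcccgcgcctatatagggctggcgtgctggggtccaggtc

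Values are log2 normalized signals. They compare 1 gene between arrays and do not rank genes against each other, because probes differ in brightness. Ago enrichment (E) of a gene is its Ago-RNA signal minus its total RNA signal at the same stage, on the log2 scale, and ΔE is the difference in E between consecutive stages. Because the arrays were brought to a common distribution, E is relative to other genes on the same array, and no control immunoprecipitation was used here. A value was called when its log2 size was at least 1, and "rose" or "fell" is used for such values only. The only error measured was the spread between repeated spots of a probe within an array. Its SD was 0.21 for a change in total RNA, 0.19 to 0.22 for E and 0.29 to 0.30 for ΔE, the median over 251 to 292 probes printed in 10 spots. This error does not cover differences between cultures or immunoprecipitations.

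The upper quartile of spot signal was between 1060 and 1774 on 7 arrays and 3039 on the ES Ago-RNA array. Markers followed the stage labels in part. The log2 of the summed total RNA signal of 5 pluripotency genes was 17.22 in ES, 15.37 in ELA, then 11.93 in NPC and 12.88 in NPC/Neu. Against the labels, the pluripotency genes Esrrb and Zfp42 rose by 1.96 and 1.06 from NPC to NPC/Neu. The same sum for 4 neural progenitor genes was 13.10 in ES and had reached 16.23 in NPC and 17.79 in NPC/Neu. For 3 neuronal genes on the arrays it was 13.17, 13.97, 15.10 and 17.23. For 3 primed epiblast genes it was highest in ELA, at 17.12, and between 15.98 and 16.23 elsewhere. Such a sum mostly follows its brightest gene, here Otx2, which was at 15.91 in NPC and differed by -0.16 from ELA. From ELA to NPC the other genes of the set fell, Fgf5 by 7.30 and Pou3f1 by 3.95. Sums for other cells were 9.15 to 10.97 for 4 mesendoderm genes, 8.54 to 12.67 for 2 neural crest genes, 8.25 to 9.70 for 3 glial genes and 10.52 to 12.15 for 3 endothelial genes. The neural crest sum was high only in ES (12.67) and ELA (12.66), against 8.54 in NPC and 9.38 in NPC/Neu. Foxd3 carried it, at 12.60 in ES and 12.59 in ELA. In total RNA Foxd3 was not well above background in NPC and was at 7.29 in NPC/Neu. Sox10, the other gene, differed by 0.03, -0.17 and 0.85 at the 3 transitions, short of the call. The ES and ELA sums thus rest on Foxd3 alone and do not by themselves mark neural crest cells. Like Foxd3, the pluripotency gene Pou5f1 was high in ES (15.21) and ELA (14.76) and low in NPC (7.98) and NPC/Neu (8.31). The glial marker S100b and the endothelial marker Cdh5 were not well above background in total RNA at any stage. The mesendoderm sum was higher in NPC (10.96) and NPC/Neu (10.97) than in ES (9.15) and ELA (9.53). From ELA to NPC, T rose by 2.55 and Foxa2 by 1.54, while Gata4 differed by -0.79 and was not well above background in NPC/Neu. Sox17 was not well above background in ELA and was at 8.08 in NPC. In ES the 4 genes were at 6.76 to 7.64, near the lowest signal well above background there, 6.74. The endothelial sum, at 11.15 in ES and 10.52 in ELA, was also higher in NPC (12.15) and NPC/Neu (12.02). That difference was carried by Kdr alone, which rose by 1.84 from ELA to NPC. In total RNA Tek, another of the 3 genes, was at 9.48 in ES and 7.46 in ELA. It was not well above background in NPC or NPC/Neu. The part of the mesendoderm, glial and endothelial genes in the results was not tested. In such bulk RNA, more cells of a type and more RNA per cell cannot be told apart.

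In total RNA, the ligand Dll1 and the effector Hes5 rose from ES cells to neural progenitors by the widest margins of the 10 genes. Hes5 was 149-fold higher in NPC/Neu than in ES, and Dll1 was 46.6-fold higher. Jag1 and Notch3 rose with NPC and Dll3 rose later, with NPC/Neu. Rbpj fell with ELA. No change of Notch1 or Notch2 between consecutive stages reached the call as a mean over their probes. By the brighter probe alone, from ES to ELA, Notch2 rose by 1.04 and Notch1 fell by 1.34.

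**Figure D1:**
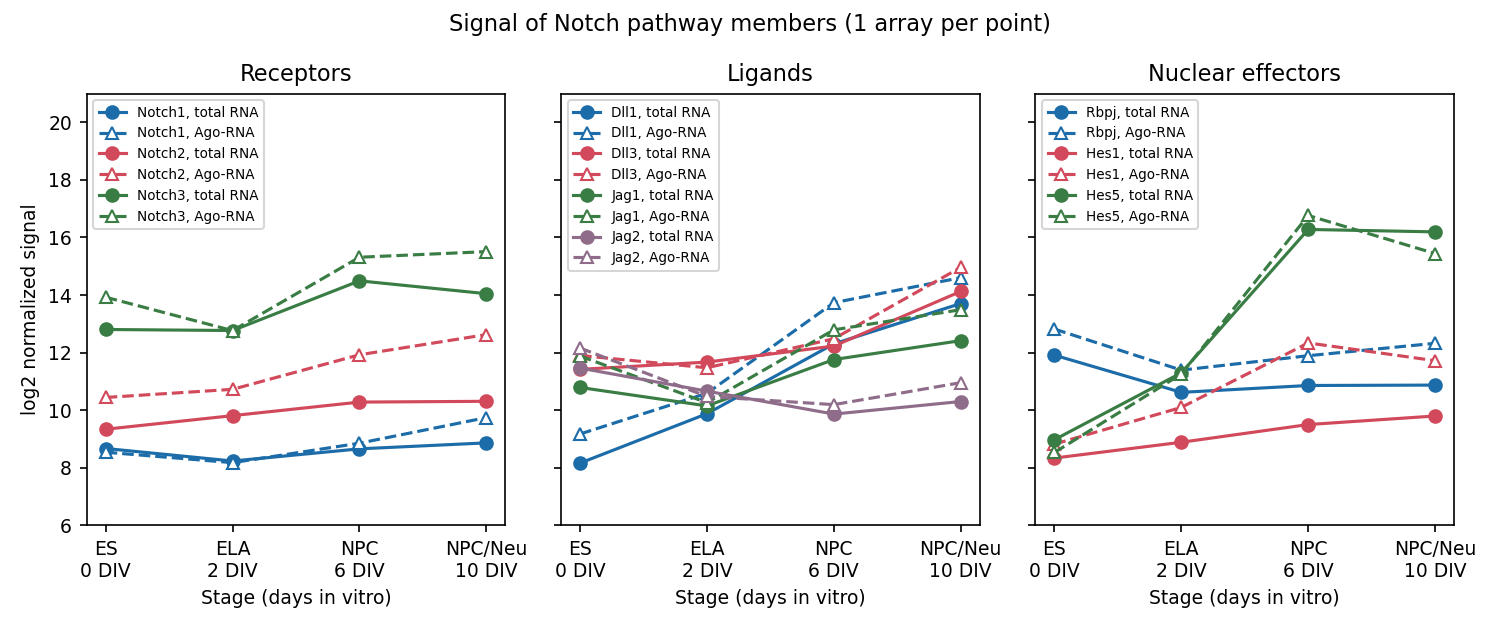
The log2 normalized signal (y axis) of each gene at the 4 stages (x axis, with days in vitro), in total RNA (filled circles, solid lines) and Ago-RNA (open triangles, dashed lines), 1 array per point. Hes5 climbs from 8.97 to 16.28 in total RNA between ES and NPC, Dll1 climbs at every stage, and the Ago-RNA of Notch2 and Hes1 lies above their total RNA throughout.

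Of the receptors, Notch1 (chr2:26313423-26372183, minus strand, mm9) had total RNA signals of 8.67 in ES, 8.23 in ELA, then 8.66 in NPC and 8.86 in NPC/Neu. In Ago-RNA it had signals of 8.54, 8.18, 8.85 and 9.74. Total RNA varied little between stages, and the Ago-RNA of NPC/Neu was the highest of the 8 signals. These are means of a pair of probes that disagree, as given further on.

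Notch2 (chr3:97817461-97954290, plus strand) had total RNA signals of 9.34, 9.81, 10.28 and 10.31 in the same order of stages. The corresponding Ago-RNA signals were 10.44, 10.72, 11.92 and 12.63. Ago-RNA was above total RNA at every stage.

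Notch3 (chr17:32257765-32303825, minus strand) had total RNA signals of 12.80, 12.77, 14.49 and 14.05. Its Ago-RNA signals were 13.92, 12.76, 15.31 and 15.51. Total RNA was level in ES and ELA and rose with NPC by 1.73, while Ago-RNA fell by 1.16 with ELA and then rose by 2.55.

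Of the ligands, Dll1 (chr17:15504318-15513836, minus strand) had total RNA signals of 8.16, 9.88, 12.30 and 13.70. In Ago-RNA it had signals of 9.17, 10.59, 13.73 and 14.60. Every step was upward on both kinds of array. Dll1 was the only member printed in 10 spots, whose SD within an array was 0.15 to 0.22, and the highest spot of each total RNA array lay below the lowest spot of the next stage. Its total RNA rose by 1.72, 2.43 and 1.40 at the 3 transitions, each with a spot SD of 0.29 to 0.30.

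Dll3 (chr7:29076673-29087257, minus strand) had total RNA signals of 11.42, 11.67, 12.23 and 14.13. The corresponding Ago-RNA signals were 11.90, 11.47, 12.48 and 14.96. NPC/Neu stood apart from the other stages on both kinds of array, with a rise of 1.90 in total RNA and 2.48 in Ago-RNA.

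Jag1 (chr2:136907192-136942380, minus strand) had total RNA signals of 10.79, 10.15, 11.76 and 12.42. Its Ago-RNA signals were 11.88, 10.26, 12.79 and 13.49. ELA was the lowest stage on both kinds of array, and total RNA rose from there to NPC by 1.61.

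Jag2 (chr12:114146801-114167706, minus strand) had total RNA signals of 11.46, 10.66, 9.86 and 10.30. In Ago-RNA it had signals of 12.16, 10.48, 10.19 and 10.96. The ES arrays were the highest of each kind, and NPC/Neu was 1.16 below ES in total RNA. No single step in total RNA reached the call, while its Ago-RNA fell by 1.68 with ELA.

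Of the nuclear genes, Rbpj (chr5:53947018-54048684, plus strand) had total RNA signals of 11.91, 10.62, 10.86 and 10.87. The corresponding Ago-RNA signals were 12.82, 11.39, 11.89 and 12.32. ES was again the highest stage of each kind. Total RNA fell by 1.29 with ELA and stayed near that level afterwards.

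Hes1 (chr16:30064470-30067882, plus strand) had total RNA signals of 8.34, 8.89, 9.50 and 9.80. Its Ago-RNA signals were 8.82, 10.10, 12.34 and 11.72. Total RNA differed by less than the call at each step, with values 0.55, 0.61 and 0.30 higher than at the stage before. Ago-RNA rose by 1.28 and 2.24 with ELA and NPC.

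Hes5 (chr4:154335032-154336480, plus strand) had total RNA signals of 8.97, 11.30, 16.28 and 16.19. In Ago-RNA it had signals of 8.53, 11.25, 16.76 and 15.44. Total RNA rose by 2.32 with ELA and by 4.98 with NPC, a 31.6-fold difference that ranked 47 of 24861 gene names. Between NPC and NPC/Neu total RNA differed by -0.08, within the spot SD, whereas Ago-RNA fell by 1.32. With scaling to the 75th percentile the total RNA difference was -0.54.

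Counted over the 10 genes, 2 (Dll1 and Hes5) rose in total RNA from ES to ELA, when 4.41% of all gene names did, and 1 (Rbpj) fell, when 4.55% did. From ELA to NPC 4 rose (Notch3, Dll1, Jag1 and Hes5), against 10.3% of all gene names, and 0 fell, against 9.57%. From NPC to NPC/Neu 2 rose (Dll1 and Dll3), against 5.37%, and 0 fell, against 3.96%. The median change of the 10 genes was 0.11, 0.59 and 0.25 at the 3 transitions, and that of all gene names was 0.00, 0.00 and -0.03. The members' counts lie above the background shares on the side of higher values, but with 10 genes and 1 array per condition this is a description only.

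Ago enrichment was above 0 for most of the genes at every stage but ELA. It was highest for Hes1, at 2.84 in NPC, a 7.14-fold ratio of Ago-RNA to total RNA that ranked 11 of 24277 gene names. This value rests on 1 probe, which lies 3 bases from the annotated transcript end, with no further probe to compare. Notch2 had E of 0.91 in ELA, its lowest stage, and 2.32 in NPC/Neu, its highest. Together with Dll1, Jag1, Rbpj and Hes1 it was above 0 at every stage. Hes5 alone was below 0 in NPC/Neu, with E of -0.44 in ES, -0.04 in ELA, then 0.48 in NPC and -0.75 in NPC/Neu.

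**Figure D2:**
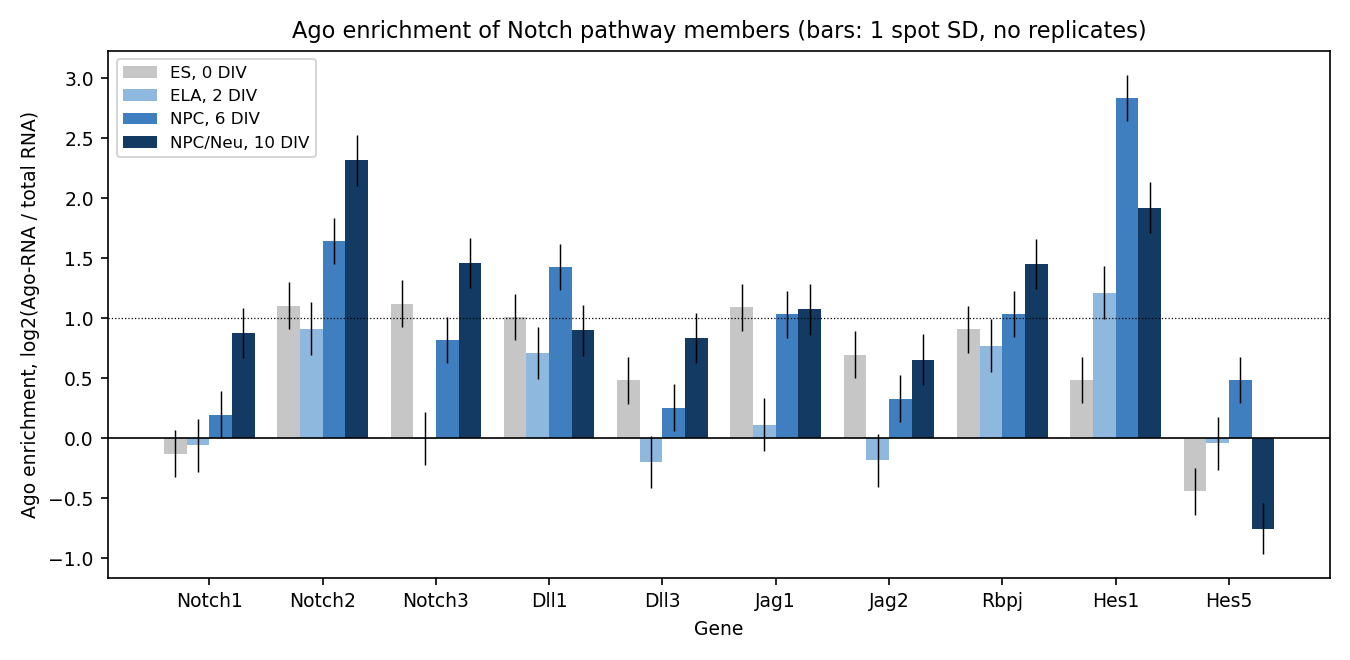
Ago enrichment, log2(Ago-RNA / total RNA) (y axis), of the 10 genes (x axis) at the 4 stages (bars, light to dark). Error bars are 1 spot SD and do not cover differences between cultures, and the dotted line marks the call at 1. The ELA bar is the lowest of the 4 for Notch2, Notch3, Dll1, Dll3, Jag1, Jag2 and Rbpj, and Hes1 in NPC, at 2.84, is the tallest bar.

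In ES cells 4 genes reached the call: Notch3 (E of 1.12), Notch2 (1.10), Jag1 (1.09) and Dll1 (1.01), all within 1 spot SD of the threshold. With scaling to the 75th percentile Dll1 was at 0.93. Among all gene names 9.37% did, and 10.5% were at -1 or below, against 0 of the 10 genes. In ELA only Hes1 reached the call, at 1.21, against 3.81% of all gene names. Notch2 did so as well under 5 of the 7 alternatives. In ELA 0 were at -1 or below, against 3.33%. In NPC the 5 were Hes1 (2.84), Notch2 (1.64), Dll1 (1.43), Rbpj (1.03) and Jag1 (1.03), against 5.33%, with 0 depleted, against 5.79%. In NPC/Neu the 5 were Notch2 (2.32), Hes1 (1.92), Notch3 (1.46), Rbpj (1.45) and Jag1 (1.07), against 10.9%, with 0 depleted, against 11.6%.

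The median E of the 10 genes was 0.80 in ES, 0.05 in ELA, then 0.93 in NPC and 0.99 in NPC/Neu. Over all gene names it was between -0.03 and 0.04. E was above 0 in 8, 5, 10 and 9 of the 10 genes, beside 52.6%, 47.0%, 50.8% and 52.3% of all gene names. The ELA arrays also gave the narrowest E over all gene names, with an SD of 0.56, against 0.82 in ES, 0.67 in NPC and 0.93 in NPC/Neu. The low member values in ELA were thus measured on the pair of arrays on which E varied least over all genes. Whether the lower spread and the lower values share an origin was not tested.

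How E is centred depends on the scaling. When the arrays were scaled to the 75th percentile of processed signal, the median E of all gene names was -0.34 in ES and -0.23 in NPC/Neu, with -0.19 and -0.17 for ELA and NPC. The shares of all gene names called enriched and depleted were then 10.4% and 26.2% in ES, 5.69% and 10.3% in ELA, 7.44% and 15.8% in NPC, and 13.2% and 22.8% in NPC/Neu. With quantile normalization within each kind of RNA they were 15.1% and 7.49% in ES, 7.50% and 2.94% in ELA, 10.3% and 3.97% in NPC, and 17.0% and 8.66% in NPC/Neu. Under these settings and the other alternatives tried, 8 to 9 members were above 0 in ES, 9 to 10 in NPC and 9 in NPC/Neu. The number of members called enriched was 4 in ELA and 9 in NPC/Neu with quantile normalization within each kind of RNA. In ELA the number above 0 ranged from 5 to 9, so the sign of E in ELA depends on the setting for Notch1, Notch3, Dll3, Jag2 and Hes5.

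Transcript length differed between the members and genes at large. The annotated transcripts of the 10 genes had a median length of 4797.5 bases, against 2466 for all 19915 genes. Across genes, E went with length, with Spearman correlations of 0.59 in ES, 0.36 in ELA, then 0.37 in NPC and 0.50 in NPC/Neu over 14086 to 15062 genes, which share the same arrays and are not independent. The part of length in the members' E was not tested. The receptors have the longest transcripts, 8044 bases for Notch3, 9488 for Notch1 and 10506 for Notch2. Hes1, with the highest E, has a transcript of 1468 bases and Hes5 one of 1273, both below the median of all genes.

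Between ES and ELA, E was lower in ELA for 7 of the 10 genes, with a median ΔE of -0.25, against -0.02 for all gene names. Only Notch3 fell past the call, by 1.12 (spot SD 0.30), when 6.06% of all gene names did, and 0 rose, against 7.05%. Jag1 (-0.98), Jag2 (-0.88) and Dll3 (-0.68) lay on the same side and did not reach the call. For Notch3 the total RNA of ELA differed from that of ES by -0.04, so nearly all of its ΔE came from the Ago-RNA arrays. The ES Ago-RNA array, which enters each of these differences, was also the brightest of the 8, and the part of its brightness in the result was not tested.

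**Figure D3:**
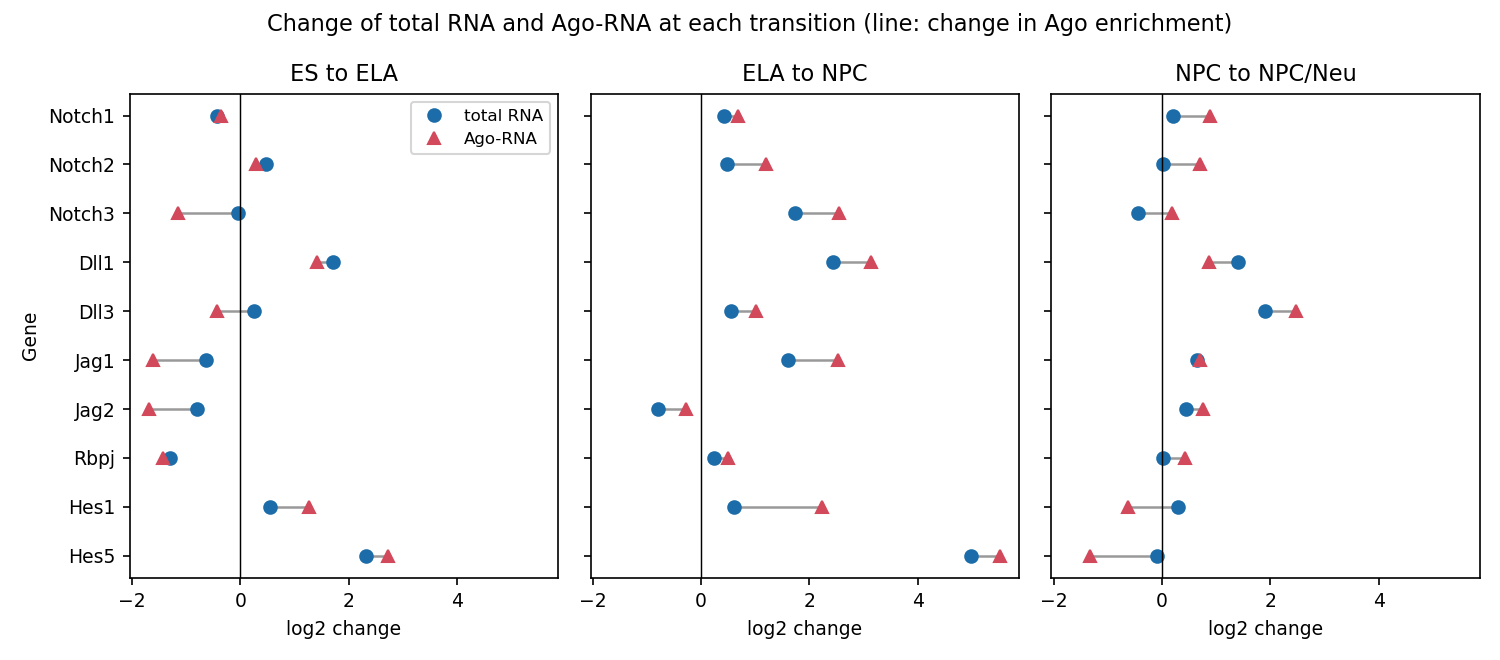
Log2 change (x axis) of total RNA (circles) and Ago-RNA (triangles) for each gene (y axis) at the 3 transitions (panels). The gray line between the symbols is ΔE. From ELA to NPC every triangle lies right of its circle, and from NPC to NPC/Neu the triangles of Dll1, Hes1 and Hes5 lie left of theirs.

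From ELA to NPC, E was higher in NPC for all 10 genes, with a median ΔE of 0.62 against 0.02 for all gene names, of which 51.8% were above 0. Notch1 was below 0, at -0.93, under 2 alternatives, the brightest probe of each gene and only probes well above background. Hes1 rose past the call by 1.62 (spot SD 0.29), which ranked 92 of 25653 gene names, when 2.57% of all gene names rose. None fell, against 3.37%. The Ago-RNA of Hes1 rose 4.72-fold at this step while its total RNA was 1.53-fold higher. Because E of ELA enters both ΔE values, with opposite sign, the values of the first 2 transitions are not independent of each other.

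From NPC to NPC/Neu, E was higher for 7 genes and lower for Dll1 (-0.53), Hes1 (-0.91) and Hes5 (-1.24), with a median ΔE of 0.37 against 0.02 for all gene names. Hes5 alone fell past the call (spot SD 0.29), when 4.18% of all gene names fell. When the arrays were scaled to the 75th percentile its ΔE was -0.83, short of the call. None rose, against 2.38%. Of the receptors, Notch3 had a ΔE of 0.64. The ΔE of 0.67 for Notch2 is the mean of 0.32 at its 3′ UTR probe and 1.03 at its coding probe, and the 0.68 for Notch1 is the mean of -0.37 and 1.73, which oppose each other. Over the whole course from ES to NPC/Neu, E was higher by 1.44 for Hes1 and 1.21 for Notch2. The Notch2 value rests mostly on its coding probe, with E of 0.82 in ES and 2.68 in NPC/Neu. That probe was dim, with total RNA signals of 7.31 to 7.52. The brighter 3′ UTR probe of Notch2 had E of 1.38 and 1.95. For Notch1 the difference of 1.01 rests on the coding probe, with E of -1.10 in ES and 0.86 in NPC/Neu, whereas the 3′ UTR probe had 0.84 and 0.90. E differed by -0.02 for Jag1, -0.04 for Jag2 and -0.11 for Dll1, within the spot SD.

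For 4 genes a pair of probes measured the same gene, and these show how far a gene's value rests on the probe. The 3 probes that lie wholly in coding exons of every transcript they match are given here as the array file lists them, with their position in mm9, because their values part from those of the 3′ UTR probes. The fourth pair, for Dll3, has a probe that is coding in some transcripts and 3′ UTR in another.
Notch1 coding probe, chr2:26319440-26319499: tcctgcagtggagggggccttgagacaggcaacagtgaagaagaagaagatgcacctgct
Notch2 coding probe, chr3:97951233-97951292: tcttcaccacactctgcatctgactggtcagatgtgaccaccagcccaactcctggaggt
Rbpj coding probe, chr5:54044777-54044836: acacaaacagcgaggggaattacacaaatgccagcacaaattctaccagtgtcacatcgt

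The Notch1 probes disagreed. The coding probe, which lies in 4 of 5 coding transcripts, had E of -1.10 in ES, 0.06 in ELA, then -0.88 in NPC and 0.86 in NPC/Neu. The 3′ UTR probe had 0.84, -0.17, 1.27 and 0.90. They differed in sign in ES and NPC by far more than the spot SD and lay within the spot SD of each other in NPC/Neu. The 3′ UTR probe was dim, with total RNA signals of 6.96 to 7.52, and was not well above background in ES total RNA or ELA Ago-RNA. The coding probe was brighter, at 10.38, 9.03, 9.93 and 10.21 in total RNA, and by it Notch1 fell by 1.34 with ELA. E of Notch1 over both probes in ES and NPC is thus an average of values that point in opposite directions. In ELA both probes were within the spot SD of 0.22 from 0.

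**Figure D4:**
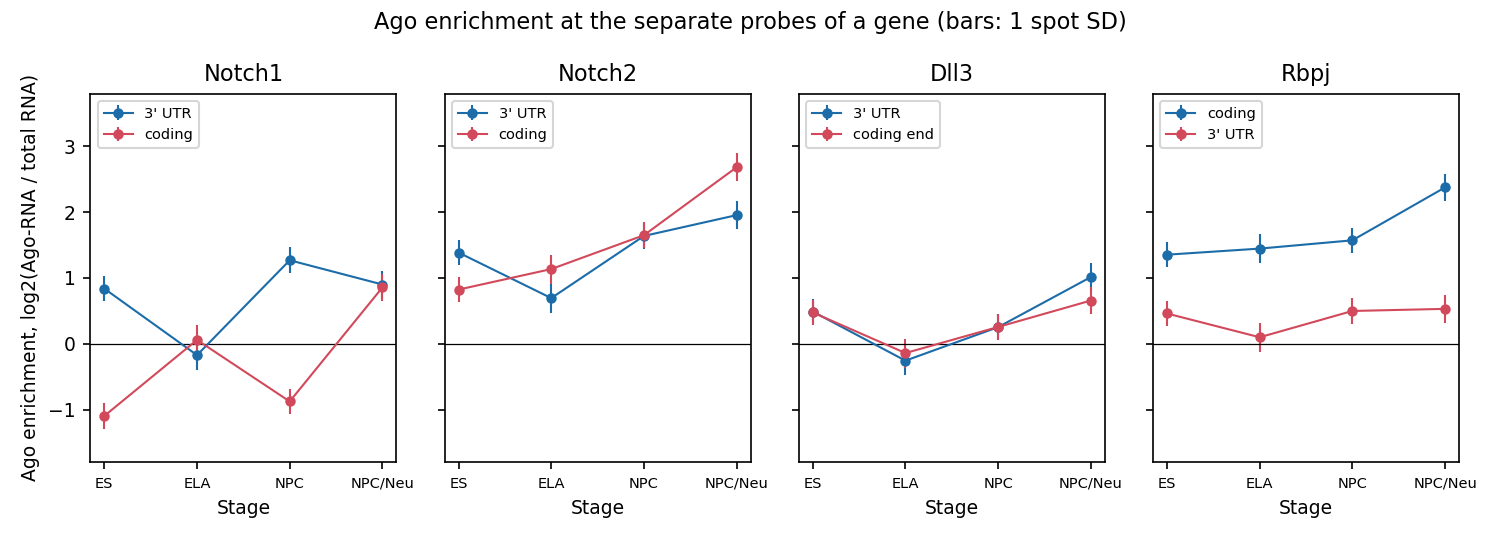
Ago enrichment, log2(Ago-RNA / total RNA) (y axis), at the 4 stages (x axis) for the separate probes of Notch1, Notch2, Dll3 and Rbpj, with error bars of 1 spot SD. The Notch1 probes lie on opposite sides of 0 in ES and NPC, the Dll3 probes lie together, and the Rbpj coding probe lies above its 3′ UTR probe at every stage.

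For Notch2 both probes had E above 0 at every stage. The 3′ UTR probe had E of 1.38, 0.69, 1.64 and 1.95 and the coding probe 0.82, 1.13, 1.65 and 2.68, so they put the lowest value at different stages and the highest at the same one. Only the brighter 3′ UTR probe had a large difference in total RNA, from 11.27 in ES to 13.18 in NPC/Neu, while the coding probe stayed between 7.31 and 7.52. The Dll3 probes gave E of 0.49 and 0.48 in ES, -0.26 and -0.14 in ELA, 0.25 and 0.26 in NPC, and 1.01 and 0.66 in NPC/Neu. For Rbpj the coding probe had E of 1.35, 1.45, 1.57 and 2.37 and the 3′ UTR probe 0.46, 0.10, 0.50 and 0.53. Its calls in NPC and NPC/Neu thus rest on the coding probe, whose sequence also matches a transcript of Rbpsuh-rs3, a gene related to Rbpj, so that the source of its signal is uncertain. Both Rbpj probes were lower in total RNA in ELA than in ES, at 8.97 against 10.28 and 12.27 against 13.55.

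Beyond the 10 genes, 55 of 59 listed names of the wider pathway were on the arrays, and 46 of them were well above background on all 8 arrays. Of those with a value, 5 of 49 rose and 1 fell from ES to ELA, where 4.41% and 4.55% of all gene names did. From ELA to NPC 16 of 54 rose and 2 fell, against 10.3% and 9.57%, and 4 of the 16 were not well above background in ELA. At the last transition 7 of 55 rose and 4 fell, against 5.37% and 3.96%, and 1 of the 7 was not well above background in NPC. The median changes were 0.11, 0.46 and 0.30. Extremes are named among genes well above background at both stages. Among ligands and receptors, Dlk1, an atypical ligand, gave the largest rise, 2.88 from NPC to NPC/Neu, and also the lowest value, -0.78 from ES to ELA. Dner, another atypical ligand, was not well above background in ELA and was at least 12.8-fold higher in NPC. Among the glycosyltransferases that modify the receptors, Lfng rose by 2.29 with NPC and then fell by 1.06. Among the proteases, Adam10, which makes the outer cut of the receptor, rose by 2.32 from ELA to NPC, and Psen2, a catalytic subunit of γ-secretase, was at -0.93.

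Of the ubiquitin ligases of the Deltex family, Dtx4 rose by 2.40 and Dtx1 fell by 4.36 from ELA to NPC, while Dtx2 (-0.68), Dtx3 (0.60) and Dtx3l (-0.80) did not reach the call. Of the nuclear cofactors, Maml3, a coactivator of the Notch complex, rose by 1.27 with ELA, and Tle4, a corepressor that Hes factors recruit, fell by 1.16 with NPC. Of the further targets, Hes3 fell by 1.38 with ELA and rose by 2.91 with NPC. Among the proneural genes, which Hes factors repress, Neurog2 and Atoh1 were not well above background in ELA (6.59 and 6.82), so that only a lower bound can be given for their higher signals in NPC: at least 7.07-fold for Neurog2 and at least 19.4-fold for Atoh1, against the lowest signal well above background on the ELA array. From NPC to NPC/Neu, Neurog2 rose by 3.63 and Atoh1 fell by 3.95. Ago enrichment reached the call for 8 of 52 listed names in ES (all gene names, 9.37%), 1 of 50 in ELA (3.81%), 7 of 53 in NPC (5.33%) and 14 of 54 in NPC/Neu (10.9%), with medians of 0.30, 0.11, 0.39 and 0.40. At -1 or below were 2, 0, 0 and 1 of them, against 10.5%, 3.33%, 5.79% and 11.6%. In ES it was highest for the corepressor Spen, at 2.47, and lowest for the γ-secretase subunit Psenen, at -1.31.

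For 1 receptor, 1 ligand and 1 effector, the gene names with the most similar course over the 8 arrays were sought among 23097, by the root mean square (RMS) difference of the centred log2 signals. For Hes5, whose own RMS about its mean was 3.22, they were Ptn (0.44), Foxb1 (0.78) and Zbtb16 (0.82). Ptn had total RNA signals of 8.03, 9.58, 15.04 and 14.72. For Dll1 (own RMS 2.24) they were Zfp521 (0.30), Zfhx4 (0.34) and a name that is a transcript identifier and not a symbol (0.39). Zfp521 had total RNA signals of 7.03, 8.26, 11.21 and 11.96. For Notch1 (own RMS 0.45) they were B930041F14Rik, Gm16386 and Ugt1a6b, each at 0.12. With so small a range of its own, many genes lie close to Notch1, and Gm16386 and Ugt1a6b had total RNA signals of 7.26 or less, near the lowest signals well above background. The Notch1 course compared is the mean of a pair of probes that disagree, so these names need not resemble either probe.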

How the data were processed

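Mouse Agilent one-color arrays (SurePrint G3, mm9) were hybridized with total RNA or Ago-RNA at 4 stages, 8 arrays in all with 1 per condition. The authors deposited spot intensity as written by the scanner software, Feature Extraction 10.7.3.1 per the file headers (9.1 per the submitters' processing notes), with no normalization between arrays. Depth does not apply; the number of arrays limits the precision. Saturated spots numbered 0 on every array.

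For each spot, the background was removed from the mean intensity by the normexp method of limma 3.58.1 (offset 50; R 4.3.3). Irregular spots were left out, and all 8 arrays were quantile normalized together after log2 transformation. Spots were averaged per probe and probes per gene name. A call is a log2 difference of at least 1. Shares over all gene names used those with a probe well above background on an array of the comparison. Other values were computed with Python 3.11.15 (pandas 2.3.3, numpy 2.4.6). Probes were placed on GENCODE transcripts of mm9, and 3′ UTRs are those of the transcript with the longest coding sequence. Hes1 had no promoter window and miR-124 no entry. The steps that make the calls were run on simulated signals with planted changes and an assumed noise. This checks the computation only and does not measure the error of the calls in these data.

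The members and lists were chosen with earlier results of these data known. Named beside the members were, per role class of the wider pathway, the largest rise and fall in total RNA over a transition, the highest and lowest E in ES, and the 3 names most like Notch1, Dll1 and Hes5 among those well above background on at least 4 arrays. Dner, Dtx2, Dtx3, Dtx3l and Kdr are named outside this rule, after their values were seen. The marker genes Pou5f1, Esrrb, Zfp42, Fgf5, Pou3f1, Otx2, T, Sox17, Gata4, Foxa2, Foxd3, Sox10, Olig2, Gfap, S100b, Cdh5 and Tek are too. Other listed names enter the counts only, and 1 item is not reported here. The alternatives were offsets of 16 and 0, processed signal (quantile normalized or scaled to the 75th percentile), quantile normalization within each kind of RNA, only probes well above background, and the brightest probe of a gene.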

Additional observations from a re-analysis of the deposited data

Results flagged for a closer look

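As a mean over probes, Hes5 was the only member whose Ago enrichment was above 0 at 1 stage and below 0 at others by more than the spot SD. Its E was 0.48 in NPC, -0.44 in ES and -0.75 in NPC/Neu. The difference was not tested, since each stage has 1 array of each kind. Under the 7 alternatives the signs at these stages held, with values of 0.16 to 0.49 in NPC, -0.93 to -0.37 in ES and -0.84 to -0.59 in NPC/Neu. With quantile normalization within each kind of RNA, Hes5 was above 0 in ELA as well, at 0.40, past the spot SD of 0.22. In NPC with scaling to the 75th percentile the value, 0.16, was within the spot SD of 0.19. Under some alternatives Notch1 and Dll3 also changed sign beyond the spot SD: by the brightest probe Notch1 had -1.10 in ES, -0.88 in NPC and 0.86 in NPC/Neu, and Dll3 had -0.26 in ELA against 0.49 in ES.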

How the results depend on the processing

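All 27 member values called (9 in total RNA, 15 of E, 3 of ΔE) kept their direction under all 7 alternatives. Of them 27 stayed past the call, except 25 with scaling to the 75th percentile, which lost Dll1 in ES (E of 0.93) and the ΔE of Hes5 (-0.83), and 25 with the brightest probe, by which Rbpj had E of 0.50 in NPC and 0.53 in NPC/Neu. From ES to ELA, 2 members in place of 1 fell past the call in total RNA with only probes well above background and with the brightest probe. The shares of all gene names that fell were then 4.38% and 5.01%. In ES 1 in place of 0 was depleted under both, beside 11.6% and 11.9% of all gene names. The added gene was Notch1 in each case. The number enriched in ELA was 2 in place of 1 with offsets of 16 and 0, beside 4.77% and 5.48% of all gene names. It was also 2 with processed signal, quantile normalized (8.31% of all gene names) or scaled to the 75th percentile (5.69%). With quantile normalization within each kind of RNA it was 4, beside 7.5% of all gene names. In NPC/Neu the number enriched was 9 in place of 5 under that last setting, beside 17.0%. For ΔE from ES to ELA, 1 gene in place of 0 rose with scaling to the 75th percentile, only probes well above background or the brightest probe. The shares of all gene names that rose were then 18.9%, 8.78% and 8.29%. At this step 2 in place of 1 fell with scaling to the 75th percentile or quantile normalization within each kind of RNA, beside 9.5% and 6.07%. For ΔE from ELA to NPC, 2 in place of 1 rose under these last 2 settings, beside 7.29% and 2.58%. For ΔE from NPC to NPC/Neu, 1 in place of 0 rose with the brightest probe, beside 2.95%. With scaling to the 75th percentile 0 in place of 1 fell, beside 10.9%. The cause was not tested. Of the 20 counts of calls over all gene names, 19 moved by over 1.5 times with quantile normalized processed signal, 15 with scaling to the 75th percentile, 6 with offset 0, 4 with quantile normalization within each kind of RNA, 1 with only probes well above background and 0 under the other 2 alternatives. In ES, for example, 2372 enriched and 2654 depleted became 4269 and 4088 with quantile normalized processed signal, and 2639 and 6630 with scaling to the 75th percentile. With 1 array per condition no array could be left out. No paired analysis was possible because the 4 pairs of Ago-RNA and total RNA are different stages and not replicates of 1 condition. E is itself the difference within a pair.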
